A study of Mus musculus with 6 samples.

Results

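The endoplasmic reticulum (ER) chaperone genes and the transcription factor gene Xbp1 were described in muscle cell cultures of Sfpq knockout mice and in control cultures. Sfpq is a nuclear RNA-binding protein. The members are 10 genes listed by name: Hspa5, Hsp90b1, Calr, Canx, Pdia4, Hyou1, Sdf2l1, Dnajb9, Herpud1 and Xbp1. All 10 were found among the 34655 genes of the joined data and passed the filter on low values, as did 12460 genes in all. Sfpq KO stands for primary myoblasts of SfpqSM-KO mice (n = 3 libraries). Control stands for primary myoblasts of control mice (n = 3 libraries). Both came from skeletal muscle of male mice aged 1 month, were grown with 20% fetal bovine serum and 2.5 ng/mL of the growth factor bFGF, and were then held for 4 days in 2% horse serum, in which myoblasts fuse into myotubes. Neither the alleles of the Control mice nor the driver of the knockout is given in the sources used here. No label says that each library came from its own mouse or culture, and the p-values below therefore cover the spread between libraries, part of which may be technical. Values are TPM, a transcript abundance scaled for transcript length and library total, from which the read depth cannot be recovered and stays unknown. Sfpq itself stood at 18.3, 19.3 and 14.1 TPM in the Sfpq KO libraries, against 48.6, 60.5 and 49.9 TPM in the Control libraries. Its log2 difference was −1.57 (limma adjusted p = 0.0529), and each Sfpq KO library lay below each Control library.

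Secreted and membrane proteins fold in the ER with the help of chaperones. Hspa5 (BiP) and Hsp90b1 (Grp94) are its Hsp70 and Hsp90 proteins, while calreticulin and calnexin hold glycoproteins through their sugars. When unfolded proteins build up, the unfolded protein response raises the chaperone genes through the factors Atf6 and Xbp1. Xbp1 protein becomes active after the sensor Ire1 splices its messenger RNA. In muscle the same compartment, as sarcoplasmic reticulum, also stores the calcium that triggers contraction.

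The promoters of 4 members carry the exact ER stress response element (ERSE), the site through which Atf6 acts, and 1 carries its relative ERSE-II. These 5 promoters are shown because the elements are known to link chaperone genes to the response. RefSeq promoter windows of GRCm38.p6, from 250 bases before to 50 bases after the gene start, were at hand for 9 of the 10 members, all but Hyou1. The exact ERSE, the letters CCAAT and CCACG with 9 bases of any kind between them, was searched on both strands. It was found in 4 of the 9 windows (Hspa5, Hsp90b1, Calr and Canx), against 0.119% of all 32851 windows. Counted by gene, 37 of 27025 held it. The related ERSE-II, the letters ATTGG and CCACG with 1 base between them, was found in Herpud1 alone among the members. It was in 0.0365% of all windows, or 12 of 27025 genes. Both elements were searched because they are known from chaperone genes, so these shares are a description and no test of the list. The sequence of each is given 5′ to 3′ on the strand of its gene, with the element in capitals, the whole window for Hspa5 and 20 bases on either side for the others. In Calr and in the second Hsp90b1 site the element runs on the opposite strand, so its complement is what is read.
Hspa5, chr2:34771840-34772139, plus strand: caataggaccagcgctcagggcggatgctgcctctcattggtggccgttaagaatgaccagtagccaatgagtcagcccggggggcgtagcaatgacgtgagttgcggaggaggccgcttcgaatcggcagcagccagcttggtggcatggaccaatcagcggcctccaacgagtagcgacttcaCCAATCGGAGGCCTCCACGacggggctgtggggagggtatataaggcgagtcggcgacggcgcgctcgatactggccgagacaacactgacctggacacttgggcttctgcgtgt
Hsp90b1, chr10:86705618-86705676, minus strand: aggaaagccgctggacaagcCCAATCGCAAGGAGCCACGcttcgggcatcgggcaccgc
Hsp90b1, chr10:86705513-86705571, minus strand: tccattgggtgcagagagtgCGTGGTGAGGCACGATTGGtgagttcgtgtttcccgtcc
Calr, chr8:84847055-84847113, minus strand: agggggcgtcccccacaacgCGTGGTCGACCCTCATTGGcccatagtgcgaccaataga
Canx, chr11:50325780-50325838, minus strand: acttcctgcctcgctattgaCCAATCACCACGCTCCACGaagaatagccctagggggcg
Herpud1, chr8:94386357-94386407, plus strand: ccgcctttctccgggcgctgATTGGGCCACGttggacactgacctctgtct

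The element began 65 bases before the gene start in Hspa5, 212 and 107 bases before it in Hsp90b1, 162 bases before it in Calr, 145 bases before it in Canx and 52 bases before it in Herpud1. The ERSE and the ERSE-II share the letters CCACG but did not coincide in any of these windows. The motif TGACGTGG, known as the unfolded protein response element that Xbp1 binds, was found in 0 of the 9 windows and in 0.676% of all windows. Pdia4, Sdf2l1, Dnajb9 and Xbp1 held no exact match of the 3 motifs in these windows. A match is a string of letters and not a measured site, and a window without one may hold a site with other letters or outside it.

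None of the 10 genes passed the test between the genotypes, and in 9 of them the libraries of the genotypes overlapped. In limma with Benjamini-Hochberg adjustment over all genes 0 members were higher and 0 lower, as for all genes tested (0.0% in each direction). At an unadjusted p under 0.05 the members again gave 0 higher and 0 lower, against 2.68% and 9.62% of all genes. Over all genes these were 334 higher and 1199 lower, but 787 higher and 657 lower with median-of-ratios scaling. Without Sfpq KO replicate 3 the unadjusted p of Sdf2l1, with higher values in Sfpq KO, was 0.0339, and with no filter that of Dnajb9, with lower values, was 0.0427. Of the 10 members 9 had a log2 difference below 0, where 64.5% of all genes did, and their median was −0.11 beside −0.068 for all genes. That median moved with single libraries. It was −0.0035 without Sfpq KO replicate 3 (−0.059 for all genes) and −0.040 without Control replicate 2 (−0.040 for all genes). It was −0.19 without Control replicate 1 (−0.10 for all genes) and −0.17 without Sfpq KO replicate 2 (−0.068 for all genes). With median-of-ratios scaling it was −0.028 (0.0071 for all genes), with 7 of 10 members below 0. With quantile normalization it was −0.071 (0.00097 for all genes), with 9 of 10 members below 0. The summed level of the 10 members was 1728, 1795 and 1445 TPM in the Sfpq KO libraries, against 1584, 1909.9 and 1817 TPM in the Control libraries, so the groups overlapped. Log2 differences here are Sfpq KO minus Control of log2(TPM + 1), a scale on which the change of weakly expressed genes comes out too small.

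**Figure D1:**
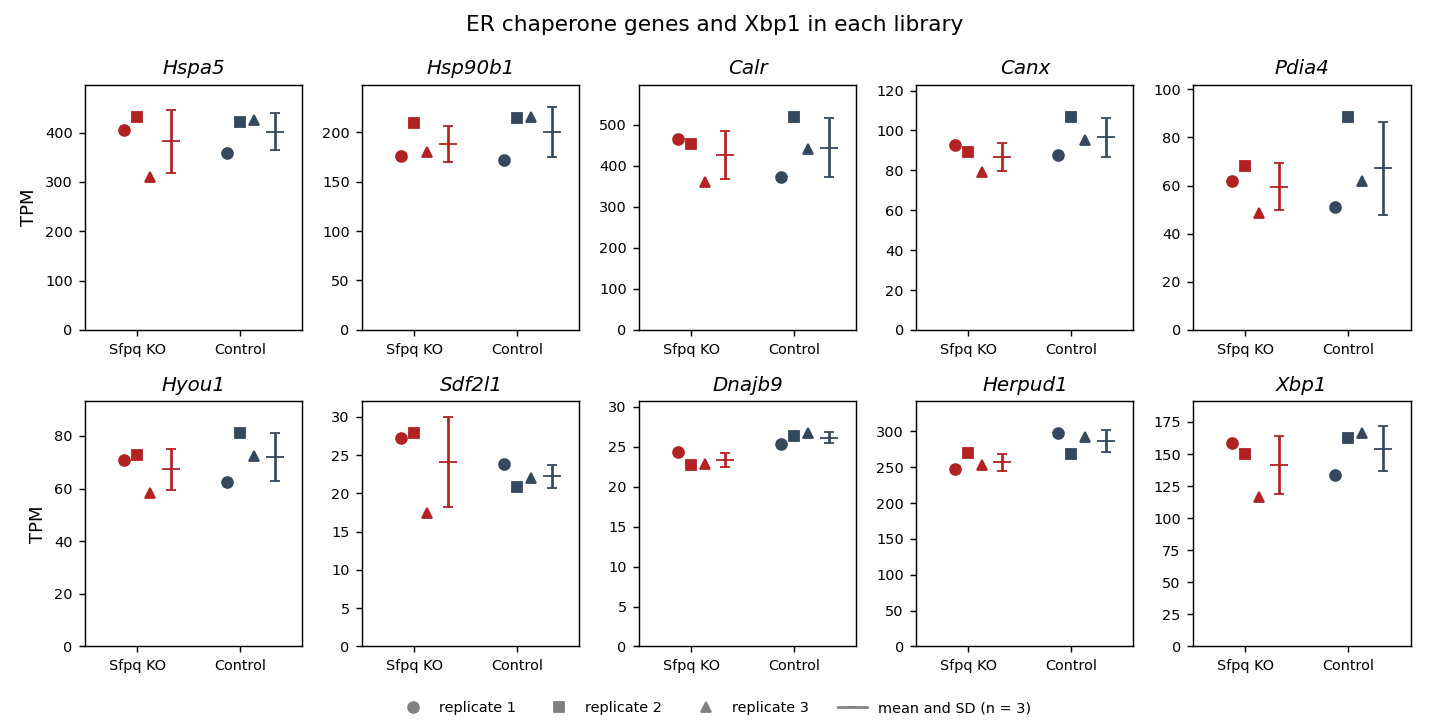
TPM of each of the 10 genes in each of the 6 libraries, with Sfpq KO in red and Control in dark blue. Symbols mark replicate numbers, and bars beside them give the mean and SD (n = 3). The groups overlap in 9 of the 10 panels, and Dnajb9 is the exception.

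Hspa5, the Hsp70 chaperone that also holds the stress sensors inactive, was at 405, 432 and 310.0 TPM in the Sfpq KO libraries, against 358, 422 and 425 TPM in the Control libraries. The spread within Sfpq KO was wider than the gap between the means, 382 ± 64.1 TPM in Sfpq KO and 402 ± 37.6 TPM in Control (SD, n = 3). Its log2 difference was −0.081 (SE 0.147; 95% interval −0.43 to 0.27; limma adjusted p = 0.845). Taken back from the log2 scale, the interval ran from 0.742 to 1.20 times the Control level, so larger changes lay outside it. Hsp90b1, the Hsp90 chaperone of the lumen, which folds integrins and Toll-like receptors among others, was at 176, 209 and 179.6 TPM in the Sfpq KO libraries, against 171, 215 and 216 TPM in the Control libraries. Control replicate 1 was its lowest library and Control replicates 2 and 3 its highest. In the fit its log2 difference came to −0.088 (SE 0.123; 95% interval −0.38 to 0.21; limma adjusted p = 0.798).

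Hyou1 (Grp170), a nucleotide exchange factor for BiP, was at 71.0, 72.5 and 58.2 TPM in the Sfpq KO libraries, against 62.4, 80.9 and 72.5 TPM in the Control libraries. The lowest value was in Sfpq KO replicate 3 and the highest in Control replicate 2, with the rest between. The log2 difference was −0.095 (SE 0.131; 95% interval −0.41 to 0.22; limma adjusted p = 0.795). Its level was 17.7 ± 0.995% of that of Hspa5 in Sfpq KO and 17.9 ± 1.13% in Control (SD, n = 3), computed library by library. The difference in this ratio was smaller than the SD of either group (2-sided exact permutation test, p = 0.8, where the smallest p that 3 against 3 allows is 0.1).

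The lectin chaperones gave the same picture. Calr, calreticulin, which also buffers calcium, had the highest level of the 10 and was at 465, 453 and 359.9 TPM in the Sfpq KO libraries, against 373, 519 and 440.4 TPM in the Control libraries. Sfpq KO replicate 3 and Control replicate 1 were its low libraries, and Control replicate 2 was above all others. Its log2 difference was −0.056 (SE 0.156; 95% interval −0.43 to 0.32; limma adjusted p = 0.903). Canx, calnexin, the membrane-bound relative of calreticulin, was at 92.6, 89.0 and 79.1 TPM in the Sfpq KO libraries, against 87.5, 107 and 95.3 TPM in the Control libraries. Its groups overlapped, since Sfpq KO replicates 1 and 2 lay above Control replicate 1. In the fit its log2 difference came to −0.15 (SE 0.106; 95% interval −0.40 to 0.10; limma adjusted p = 0.597).

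Pdia4 (ERp72), a protein disulfide isomerase, was at 61.8, 68.0 and 48.7 TPM in the Sfpq KO libraries, against 50.9, 88.5 and 61.9 TPM in the Control libraries. Its values spread the most of the 10 on the log2 scale, with an SD within groups of 0.33, and Control replicate 2 stood above the rest. The log2 difference was −0.15 (SE 0.219; 95% interval −0.67 to 0.37; limma adjusted p = 0.811), so the interval allowed 0.629 to 1.30 times the Control level. Sdf2l1, which works with the J-domain cochaperones of BiP, was the only member with a mean above Control, at 27.2, 27.8 and 17.4 TPM in the Sfpq KO libraries, against 23.9, 20.9 and 22.0 TPM in the Control libraries. Sfpq KO replicates 1 and 2 were above all Control libraries and Sfpq KO replicate 3 was below them all. Its log2 difference was 0.085 (SE 0.184; 95% interval −0.35 to 0.52; limma adjusted p = 0.872).

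Dnajb9 (ERdj4), a J-domain cochaperone that brings BiP to Ire1, was the only member whose groups did not overlap. It was at 24.4, 22.7 and 22.9 TPM in the Sfpq KO libraries, against 25.4, 26.4 and 26.7 TPM in the Control libraries. Of all genes tested 15.3% were likewise lower without overlap and 4.27% higher, so 1 of 10 is no more than that background. In the fit its log2 difference came to −0.16 (SE 0.080; 95% interval −0.35 to 0.033; limma adjusted p = 0.472), and the unadjusted p was 0.0900. The mean in Sfpq KO was 0.892 times that in Control.

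Herpud1 (Herp), a membrane protein of ER-associated degradation, which sends misfolded proteins to the proteasome, was at 247, 269.7 and 253 TPM in the Sfpq KO libraries, against 297, 269 and 292 TPM in the Control libraries. The groups nearly separated, with Sfpq KO replicate 2 above Control replicate 2 and every other Sfpq KO library below every Control library. The log2 difference was −0.16 (SE 0.083; 95% interval −0.35 to 0.041; limma adjusted p = 0.489). Xbp1, the transcription factor, was at 159, 150.4 and 116 TPM in the Sfpq KO libraries, against 134, 162 and 166 TPM in the Control libraries. Sfpq KO replicate 3 was lowest, as for Hspa5, and the other Sfpq KO libraries lay inside the range of Control. Its log2 difference was −0.13 (SE 0.146; 95% interval −0.48 to 0.22; limma adjusted p = 0.751). The value of each member rests on 1 RefSeq accession, so spliced and unspliced Xbp1 messages were not told apart and the activity of Ire1 was not measured.

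**Figure D2:**
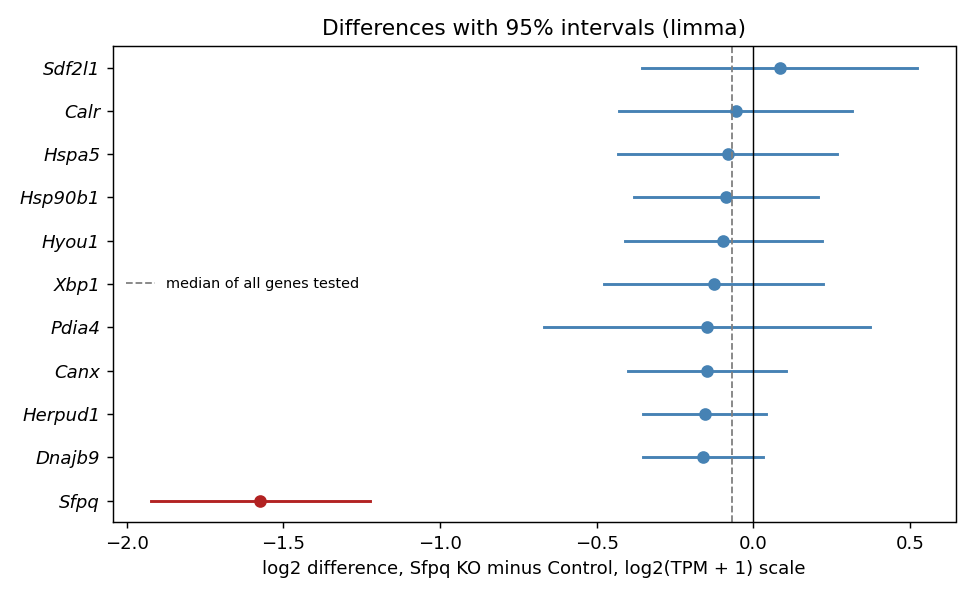
Log2 difference of each member, Sfpq KO minus Control, with its 95% interval from limma, and that of Sfpq for scale. The intervals of all 10 members include 0 and the dashed median of all genes, while that of Sfpq runs from −1.92 to −1.22.

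By level the members spanned from 23.2 TPM for Sdf2l1 to 435 TPM for Calr, as means of the 6 libraries. Calr stood above Hspa5 (392 TPM) in 6 of 6 libraries, although their ranges overlapped. Herpud1 (271 TPM), Hsp90b1 (194 TPM), and Xbp1 (148 TPM) followed, each in a range of its own. Canx (91.7 TPM) stood above the next gene, Hyou1, in 6 of 6 libraries with ranges that just overlapped. Further down, Hyou1 (69.6 TPM) exceeded Pdia4 (63.3 TPM) in 5 of 6 libraries and Dnajb9 (24.7 TPM) exceeded Sdf2l1 in 4 of 6. The ranges overlapped in both pairs, and the difference within a pair was not tested. Among all genes tested Calr was at the 97.5 percentile of level, Xbp1 at the 91.9 percentile and Sdf2l1 at the 57.6 percentile. The proportions between members also did not separate the genotypes. As a share of Hspa5, Xbp1 was at 37.1 ± 2.16% in Sfpq KO and 38.3 ± 0.872% in Control, and Hsp90b1 at 49.9 ± 7.41% and 49.8 ± 1.69%. Over 9 such ratios the exact permutation p ran from 0.3 to 1, and the adjusted p was 1 for each.

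Most members varied between libraries of the same genotype, and much of that variation was shared. Sfpq KO replicate 3 was the lowest Sfpq KO library for 7 of 10 members, where 36.4% of all genes had their lowest value there. Control replicate 1 was the lowest Control library for 8 of 10 members, and for 50.4% of all genes. The median deviation of the members from their own group's mean was −0.22 in Sfpq KO replicate 3 and −0.18 in Control replicate 1 on the log2 scale, against −0.020 and −0.060 for all genes. Not every member followed it: Hsp90b1, Dnajb9 and Herpud1 were not lowest in Sfpq KO replicate 3, and Sdf2l1 and Herpud1 were highest in Control replicate 1 among the Control libraries. Dnajb9 and Herpud1 varied the least of the 10 within groups. In both the log2 difference between the genotypes, −0.16, was larger than that spread, although neither passed the test. Their SDs within groups were 0.046 and 0.072 on the log2 scale, at the 2.68 and 11.2 percentile of the genes with a mean of at least 10 TPM, while Hspa5 stood at 0.20 and the 69.5 percentile. Leaving out a library moved the differences between the genotypes. Without Sfpq KO replicate 3 only 5 of 10 members had a log2 difference below 0, and Hspa5 (0.062), Calr (0.060), Hyou1 (0.0045) and Xbp1 (0.0093) turned to the other side of 0. Calr (0.062) and Pdia4 (0.069) did so without Control replicate 2, and Sdf2l1 without Sfpq KO replicate 1 (−0.013) or replicate 2 (−0.029). With median-of-ratios scaling Hspa5 stood at 0.0016 and Calr at 0.027. What sets these libraries apart was not tested, and no label gives a batch.

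**Figure D3:**
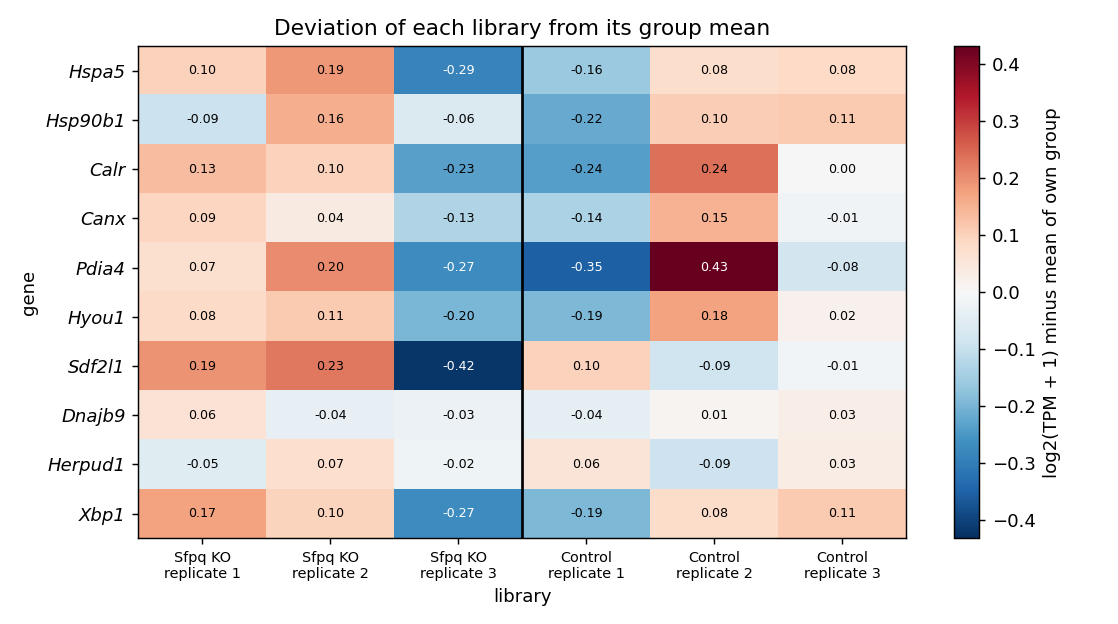
Each cell gives log2(TPM + 1) of a gene in a library minus the mean of that library's own group, with red above and blue below. The columns of Sfpq KO replicate 3 and Control replicate 1 are blue for most genes, with medians of −0.22 and −0.18, while the rows of Dnajb9 and Herpud1 stay near 0.

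The profile of Hspa5 over the 6 libraries was compared with that of 7918 other genes at a mean of at least 10 TPM, by the root mean square difference of log2 values centred on each gene's mean. The median gene lay at a distance of 0.212, and a gene with no variation at all would lie at 0.172. Xbp1, at 0.0568, was the gene with rank 6 of the 7918. Hyou1 had rank 17 (0.0701), Calr rank 84 (0.0933) and Canx rank 181 (0.108), while Hsp90b1, Dnajb9, Sdf2l1, Herpud1 and Pdia4 had ranks of 459 to 2583. The 5 genes outside the list with the nearest profiles were Lsp1 (0.0508), Ptp4a1 (0.0539), Pheta1 (0.0552), Phldb3 (0.0558) and Nt5c (0.0559). With 6 points per gene and 7918 genes small distances arise often, and these are given as a description.

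The helpers around the chaperones were read from fixed lists in the same fit. Of 46 further folding genes 31 had differences below 0 (67.4%, beside 64.5% of all genes; median −0.071), with 0 past the adjusted threshold. At an unadjusted p under 0.05 1 was lower (2.17%, beside 9.62% of all genes) and 0 higher (2.68% of all genes). That gene was Uggt2, a sensor that marks misfolded glycoproteins, at 1.86 ± 0.241 TPM in Sfpq KO and 2.56 ± 0.0369 TPM in Control (SD, n = 3; log2 difference −0.32, limma adjusted p = 0.375). Creld2, a folding protein induced by ER stress, was at 35.5, 31.6 and 32.0 TPM in the Sfpq KO libraries, against 25.9, 30.9 and 26.7 TPM in the Control libraries. Its groups did not overlap, with the higher values in Sfpq KO (log2 difference 0.24, limma adjusted p = 0.408), and Dnajc1, a J-domain cochaperone, was apart in the other direction (−0.28, limma adjusted p = 0.425). In all 4 of the 46 were lower without overlap (Dnajc1, Dnajc10, Tmx1 and Uggt2), a share of 8.70% beside the 15.3% of all genes, and Creld2 was the 1 higher, where 4.27% of all genes were. The most abundant of the list, the collagen chaperone Serpinh1 and the disulfide isomerase P4hb, had log2 differences of 0.071 and −0.031.

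Genes of ER-associated degradation, the pathway in which Herpud1 acts, gave 21 of 28 below 0 (75.0%, beside 64.5% of all genes; median −0.077), with 2 lower at an unadjusted p under 0.05 (7.14%, beside 9.62% of all genes). Sel1l, the scaffold of the ligase complex, was at 30.8, 33.7 and 28.0 TPM in the Sfpq KO libraries, against 35.3, 38.2 and 36.0 TPM in the Control libraries. Each Sfpq KO value was under each Control value (log2 difference −0.24, limma adjusted p = 0.387). Edem3, which trims mannose from misfolded glycoproteins, and Os9, a lectin of the same pathway, were likewise without overlap, with log2 differences of −0.27 and −0.27 (limma adjusted p = 0.375 and 0.473). The abundant Vcp, the ATPase that pulls proteins out of the membrane, and the conjugating enzyme Ube2g2 stood at −0.12 and 0.19. In all 4 of 28 were lower without overlap, a share of 14.3% beside the 15.3% of all genes.

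Among the sensors and transducers of the response 8 of 13 were below 0 (61.5%, beside 64.5% of all genes; median −0.065), and 0 passed at an unadjusted p under 0.05 in either direction. Atf6, the sensor that is cut to become a transcription factor, was at 37.0, 44.1 and 38.2 TPM in the Sfpq KO libraries, against 49.3, 42.8 and 46.4 TPM in the Control libraries. Only Sfpq KO replicate 2 reached into the Control range. The proteases that cut it, Mbtps1 and Mbtps2, were lower without overlap at log2 differences of −0.22 and −0.20 (limma adjusted p = 0.431 for both). Creb3, a membrane-bound transcription factor that the same proteases cut, was higher without overlap, at 105, 103 and 105 TPM in the Sfpq KO libraries, against 94.7, 96.6 and 98.1 TPM in the Control libraries (log2 difference 0.11, limma adjusted p = 0.540). The 2 of 13 that were lower without overlap make 15.4%, beside 15.3% of all genes. Creb3 was the 1 of 13 that was higher, where 4.27% of all genes were. Wfs1, wolframin, and Tmbim6, which restrains Ire1, were the most abundant of the list and had log2 differences of 0.0053 and −0.065.

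In the branch of the sensor Perk and the factor Atf4, 16 of 16 tested genes had differences below 0, where 64.5% of all genes did, with a median of −0.31. At an unadjusted p under 0.05 4 were lower (25.0%, beside 9.62% of all genes) and 0 higher (2.68% of all genes). Lower without overlap were 4 of the 16 (Atf4, Asns, Ppp1r15b and Vldlr), a share of 25.0% beside the 15.3% of all genes. None was higher without overlap, where 4.27% of all genes were. The summed level of the list was 943, 1498 and 1141 TPM in the Sfpq KO libraries, against 1605, 1504 and 1425 TPM in the Control libraries, so Sfpq KO replicate 2 lay inside the Control range. The median was −0.48 without that library and −0.21 without Sfpq KO replicate 1. Atf4 itself was at 283, 395 and 343 TPM in the Sfpq KO libraries, against 419, 443 and 437 TPM in the Control libraries, with no overlap (log2 difference −0.36, limma adjusted p = 0.353). Vldlr, a lipoprotein receptor, and Ppp1r15b, a phosphatase subunit that reverses the Perk signal, had log2 differences of −1.01 and −0.33, and 0 genes passed the adjusted threshold. Whether this branch and the chaperones differed from each other was not tested.

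Genes of protein entry into and export from the ER gave 31 of 42 below 0 (73.8%, beside 64.5% of all genes), with a median of −0.060. At an unadjusted p under 0.05 in limma 5 were lower (11.9%, beside 9.62% of all genes) and 0 higher (2.68% of all genes). Stt3b, a catalytic subunit of the enzyme that adds sugar chains, was at 45.8, 40.7 and 37.2 TPM in the Sfpq KO libraries, against 54.0, 52.8 and 53.1 TPM in the Control libraries. Ssr3, a subunit of the translocon-associated complex, was at 98.4, 98.4 and 92.6 TPM in the Sfpq KO libraries, against 113, 127 and 118 TPM in the Control libraries. In both genes every Sfpq KO library was under every Control library, with log2 differences of −0.37 and −0.30 (limma adjusted p = 0.253 and 0.257), and 0 genes of the list passed the adjusted threshold. In all 7 of 42 were lower without overlap, a share of 16.7% beside the 15.3% of all genes. Srp72, of the signal recognition particle, was at −0.24, while the abundant Surf4 and Dad1 were at −0.10 and −0.020.

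**Figure D4:**
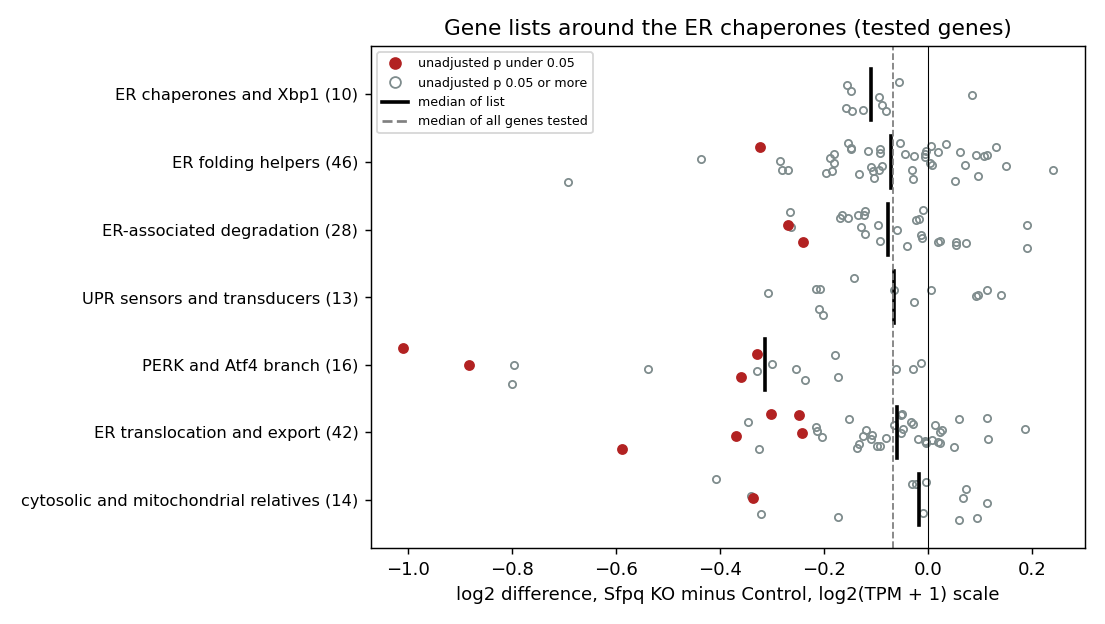
Log2 differences, Sfpq KO minus Control, of every tested gene in 7 lists, with the number of genes in brackets. Filled red points have an unadjusted p under 0.05, black bars are list medians and the dashed line is the median of all genes, −0.068. The member list holds 0 red points, and the Perk and Atf4 list has its median at −0.31.

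The summed markers of differentiated muscle did not overlap between the genotypes, and the marker values belong beside each result above, although no single marker passed the adjusted threshold. The 10 markers of differentiated muscle summed to 89189, 84854 and 85209.8 TPM in the Sfpq KO libraries, against 74609.7, 72902 and 70210.4 TPM in the Control libraries, without overlap. Of these markers 7 of 10 were above 0, while 64.5% of all genes were below 0. In 4 of 10, Tnnc1 (log2 difference 0.47), Des (0.30), Acta1 (0.33) and Mylpf (0.31), each Sfpq KO library lay above each Control library. Of all genes 4.27% were likewise higher without overlap. Tnnt3 (−0.25), Ckm (−0.22) and Ttn (−0.016) were below 0. Acta1 and Mylpf made up most of the sum, at means of 30842 and 24151 TPM in Sfpq KO and 24426 and 19469 TPM in Control. The 5 markers of undifferentiated myoblasts had log2 differences below 0 in 5 of 5, beside 64.5% of all genes, with a median of −0.68. At an unadjusted p under 0.05 in limma 2 of the 5 were lower (40.0%, beside 9.62% of all genes). Lower without overlap was 1 of the 5 (20.0%, beside 15.3% of all genes). The summed levels of the 5 markers were 35.4, 64.5 and 36.4 TPM in the Sfpq KO libraries, against 69.3, 63.1 and 67.2 TPM in the Control libraries. These sums overlapped, with Sfpq KO replicate 2 inside the Control range. Among fibroblast markers the sum was 166, 219 and 156 TPM in the Sfpq KO libraries, against 198, 288 and 297 TPM in the Control libraries, also with overlap and nearly all of it Col3a1 and Col1a1, while Lum was at 0 in 5 of 6 libraries and Dcn and Pdgfra were under 5 TPM. All 4 tested fibroblast markers were below 0, where 64.5% of all genes were. Of these 4 Col1a1 alone was lower without overlap (25.0%, beside 15.3% of all genes). It was at 11.1, 24.9 and 11.6 TPM in the Sfpq KO libraries, against 30.3, 35.9 and 75.9 TPM in the Control libraries (log2 difference −1.50, limma adjusted p = 0.271). Pdgfra, which did not pass the filter, was also lower without overlap. Markers of endothelial cells, macrophages, adipocytes and Schwann cells each summed, list by list, to at most 3.08 TPM in any library, and the defining genes Ptprc, Adgre1 and Emcn were at 0 in all 6. Fewer cells of a type and less RNA per cell cannot be told apart in such libraries, and the part of the marker levels in the chaperone levels was not tested.

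The series asks whether long genes depend on Sfpq, and the members are short genes. Their spans run from 2.25 kb for Sdf2l1 to 31.7 kb for Canx in the GRCm38.p6 RefSeq table, with a median of 7.15 kb beside 21.7 kb for all tested genes. Hspa5 lies on chromosome 2 (34772090 to 34776529), Pdia4 on chromosome 6 (47796141 to 47813512), Calr on chromosome 8 (84842088 to 84846931), Herpud1 on chromosome 8 (94386429 to 94395371) and Hyou1 on chromosome 9 (44379490 to 44392369). The rest are Hsp90b1 on chromosome 10 (86690841 to 86705444), Canx on chromosome 11 (50293957 to 50325673), Xbp1 on chromosome 11 (5520641 to 5525993), Dnajb9 on chromosome 12 (44205897 to 44210068) and Sdf2l1 on chromosome 16 (17130138 to 17132383). In GENCODE annotation Herpud1 overlaps an antisense gene, Gm15890, and Hsp90b1 overlaps a pseudogene on the opposite strand, 1810014B01Rik, and Gm15344 on its own strand. Annotated miRNA genes lie within Pdia4, Dnajb9 and Hsp90b1. Since the use of strand in counting is not given, the values of Herpud1 and Hsp90b1 may include reads of Gm15890 and 1810014B01Rik. Reads of Gm15344 may be included in Hsp90b1 in either case, since both lie on the same strand.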

How the data were processed

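PolyA RNA of 6 libraries, 3 Sfpq KO and 3 Control by their titles, was sequenced on an Ion Proton. The authors deposited 1 TPM value per RefSeq accession and library. STAR 2.4.1d is named as the aligner and mm10 as the genome, per the submitters' processing notes. No source used here gives the counting tool, the annotation release or the use of strand. Of 34671 accessions 30824 were named through a RefSeq table of GRCm38.p6, the assembly of mm10, and 103 through GENCODE; the other 3744 kept their accession and held 1.18% to 1.27% of TPM. TPM was summed per symbol. A gene was tested where 3 or more libraries had a TPM of 1 or more, with limma (version 3.58.1, R 4.3.3) fitted to log2(TPM + 1) (intensity trend, no block, 2-sided, Benjamini-Hochberg over all 12460 genes, threshold 0.05). The fit was checked on simulated data. Joins, motif searches and plots were made in Python 3.11.15 (pandas 2.3.3, matplotlib 3.10.9). No count model or counting interval was used, since TPM keeps no depth.

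The members and lists were chosen with earlier results of these data known. The text names the 10 members, Sfpq, up to 3 genes per list with the smallest p and up to 2 with the highest TPM, and the 5 profiles nearest to Hspa5. Further marker and list genes were named after their values were seen. Hsf1 and Postn were not analysed here. Alternatives covered the pseudocount, filter, scaling, trend, replicate block, threshold, single accessions and each library left out.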

Additional observations from a re-analysis of the deposited data

How the results depend on the processing

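The count of 0 members past the adjusted threshold held under each alternative that gave a count, and the lowest adjusted p of any member was 0.336 over 15 alternatives. The lowest unadjusted p was 0.0339, for Sdf2l1 without Sfpq KO replicate 3. Of 150 member values 140 kept their direction. Those from the filters, the trend, the replicate block and single accessions could not do otherwise, since these settings left each member's difference unchanged. With median-of-ratios scaling Hspa5 turned to 0.0016 and Calr to 0.027, and the other 8 turns came from leaving out a library. The same scaling put Hsp90b1, Hyou1, Xbp1, Pdia4, Canx, Herpud1 and Dnajb9 at −0.0055, −0.013, −0.044, −0.065, −0.066, −0.073 and −0.079, and Sdf2l1 at 0.16. Leaving out each library in turn gave −0.18 to 0.062 for Hspa5, −0.17 to 0.062 for Calr, −0.19 to 0.0045 for Hyou1, −0.32 to 0.069 for Pdia4, −0.029 to 0.30 for Sdf2l1, −0.22 to 0.0093 for Xbp1, −0.20 to −0.032 for Hsp90b1, −0.22 to −0.074 for Canx, −0.19 to −0.14 for Dnajb9 and −0.20 to −0.13 for Herpud1, and 5 to 10 members below 0. Over all genes the calls past an adjusted p of 0.05 numbered 13 with a pseudocount of 5, 7 at a mean TPM of at least 5, 2 with limma without trend and 28 at an adjusted p under 0.1, against 0 as reported. Unadjusted calls were 787 higher and 657 lower with median-of-ratios scaling and 693 and 679 with quantile normalization, and 563 higher with no filter. They were 209 to 615 higher and 651 to 1266 lower with 1 library left out. With median-of-ratios scaling the list medians were 0.010 for folding, 0.0029 for degradation, 0.017 for sensors, 0.022 for translocation and export, 0.065 for cytosolic and mitochondrial relatives and −0.23 for the Perk and Atf4 branch, beside 0.0071 for all genes. With 1 library left out they ran from −0.16 to 0.0069 for folding, −0.10 to −0.0040 for degradation, −0.15 to −0.053 for sensors, −0.11 to −0.019 for translocation and export, −0.097 to 0.060 for the relatives and −0.48 to −0.21 for the branch. The cause of these moves was not tested. The counts of members below 0, the unadjusted counts and the medians of the other lists were added as results after the data were seen. No label says whether replicate numbers pair the libraries, and the values cannot decide it. The correlations of same-numbered deviations were −0.259, −0.2497 and 0.0502, while that of Sfpq KO replicate 1 with Control replicate 2 was 0.412. The replicate block called 0 genes past the adjusted threshold, as did the main fit. Unknown read depth limits the precision of the low genes.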

Other observations

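Relatives of the ER chaperones in the cytosol and mitochondria were read from a further list. Of 14 tested genes 9 had differences below 0 (64.3%, beside 64.5% of all genes; median −0.017), with 0 past the adjusted threshold in limma. At an unadjusted p under 0.05 1 was lower (7.14%, beside 9.62% of all genes) and 0 higher. Hsp90ab1, the cytosolic relative of Hsp90b1, was at 2246, 2182 and 2292 TPM in the Sfpq KO libraries, against 2006, 2566 and 2200.1 TPM in the Control libraries. Hspa8, the cytosolic relative of Hspa5, was at 1881, 1675 and 1874 TPM in the Sfpq KO libraries, against 1693, 2086 and 1783 TPM in the Control libraries. All 14 overlapped between the genotypes. Hspa9, the mitochondrial Hsp70 of the matrix, averaged 309.7 ± 46.9 TPM in Sfpq KO and 391 ± 43.3 TPM in Control, and Trap1, the Hsp90 of mitochondria, averaged 129.9 ± 18.0 TPM in Sfpq KO and 164 ± 14.2 TPM in Control (SD, n = 3). Their log2 differences were −0.34 and −0.34 (limma adjusted p = 0.408 and 0.361). The stress-inducible cytosolic Hsp70 genes Hspa1a and Hspa1b had log2 differences of −0.41 and −0.32 (limma adjusted p = 0.613 and 0.691). They are near-identical copies, so the split of reads between them is uncertain. Bag3, a cochaperone of muscle, was at 0.11.

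Outside the 10 members the ERSE or ERSE-II was found in Dnajb11, Dnajc3, Pdia6, Ero1b and Creld2 of the folding list (5 of 39 with a window), in Syvn1 and Derl3 of the degradation list (2 of 21) and in Krtcap2 of the translocation and export list (1 of 34). It was found in 0 of 9 sensor genes, 0 of 16 genes of the Perk and Atf4 branch and 0 of 10 cytosolic and mitochondrial relatives, and in 0.155% of all windows. The 19 tested genes with an ERSE, 4 of them members, had a median log2 difference of −0.067, beside −0.068 for all genes. Of the 19 genes 14 were below 0, where 64.5% of all genes were. At an unadjusted p under 0.05 in limma 0 were higher and 0 lower, beside 2.68% and 9.62% of all genes. The 9 tested genes with an ERSE-II, Herpud1 among them, had a median of −0.16, the same as Herpud1 itself, beside −0.068 for all genes. Of these 9 genes 6 were below 0, where 64.5% of all genes were, and again 0 were past an unadjusted p of 0.05. With so few genes these counts of 0 say little.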
